A study of Homo sapiens with 6 samples.

Results

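Cholesterol and fatty acid synthesis was followed as a set of 33 genes in A375, a human melanoma cell line, on 6 Affymetrix expression arrays. The genes were given as a list of enzymes and regulators, and each was read at its brightest probe set annotated to that gene alone. This left 31 of the 33 genes measured, among 18132 genes in all. The squalene synthase gene FDFT1 and the sterol demethylase gene CYP51A1 had no such probe set and were not analysed here. The set comprised 7 measured enzymes of the mevalonate pathway, 9 of sterol synthesis, 6 genes of regulation and sterol transfer, and 9 enzymes of fatty acid synthesis.

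Of the 6 arrays, 3 held A375 cells carrying a stable short hairpin RNA against MAP4K5, a germinal centre kinase (knockdown). The other 3 held A375 cells labelled with no hairpin or vector (control). All were grown in DMEM with serum and antibiotics and received no treatment. The labels call the arrays of each group biological replicates without saying how the cultures were separated, so the spread behind each p-value is that of these arrays and may be partly technical. The sources used here do not give whether the knockdown line was 1 clone, whether the controls carried an empty vector, or the hairpin's sequence. Loss of MAP4K5 and other consequences of introducing the hairpin therefore cannot be told apart.

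Animal cells build cholesterol from acetyl-CoA through mevalonate, isoprenoid units, squalene and lanosterol, and they build fatty acids from cytosolic acetyl-CoA through malonyl-CoA. Transcription of both arms is driven by the sterol regulatory element-binding proteins (SREBPs), encoded by SREBF1 and SREBF2. SREBP precursors sit in the endoplasmic reticulum, where SCAP escorts them to the Golgi for cleavage when sterols are scarce and INSIG proteins hold them back when sterols are plentiful. INSIG1 and many enzyme genes of the pathway are themselves SREBP targets.

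MAP4K5 measured 19.67, 18.83 and 20.3 in knockdown replicates 1, 2 and 3, against 77.72, 78.13 and 76.31 in control replicates 1, 2 and 3 (RMA intensity, a linear scale). Over all genes, arrays of the knockdown group correlated with each other at 0.9975, control replicates 1 and 3 at 0.9966, and control replicate 2 with control replicates 1 and 3 at 0.9916 and 0.9917. Its correlation with the knockdown arrays was 0.9934 to 0.9939. Genes, the points of these correlations, are not independent of each other. Control replicate 2 thus stood apart from the other controls while its MAP4K5 level did not. Calls of genes are given below with and without it, while the probe set values and counts are over all 6 arrays. Of 10 measured melanoma and melanocyte markers, 5 were above the median gene mean of 8.68, among them SOX10 (22.9 ± 0.783 in knockdown and 33.5 ± 4.78 in control cells, SD, n = 3 each) and MITF (118.4 ± 3.06 in knockdown and 60.93 ± 16.0 in control cells). The other markers above that median were S100B (27.09 ± 2.54 in knockdown and 67.79 ± 13.5 in control cells), AXL and NGFR. The pigment genes TYR, PMEL, MLANA and TYRP1 were below 4 in both groups. All 6 fibroblast markers had means below 4 in both groups, as did 3 of 4 leukocyte markers (PTPRC, CD3E and CD14). The leukocyte marker LYZ measured 10.48 ± 0.537 in knockdown and 5.399 ± 0.978 in control cells. The epithelial markers EPCAM and CDH1 were below 3, and KRT5 and CLDN4 had means below the median gene mean. KRT18 measured 2005 ± 149 in knockdown and 1240 ± 69.1 in control cells. KRT8 measured 26.31 ± 2.86 in knockdown and 18.48 ± 6.73 in control cells, and KRT14 12.81 ± 1.1 and 6.118 ± 1.35.

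Averaged over the 31 genes, the set stood at nearly 1 level in the 3 knockdown arrays, and control replicate 2 lay above that level while control replicates 1 and 3 lay below it. The geometric mean intensity was 53.02, 52.96 and 53.96 in knockdown replicates 1, 2 and 3, against 43.86, 57.17 and 43.99 in control replicates 1, 2 and 3. Control replicate 2 was above both other controls for 23 of the 31 genes, or 74.2%, against 35.6% of all genes. It was above every knockdown array for 18 of them, or 58.1% against 28.8% of all genes, within the knockdown range for 8 and below it for 5. Against control replicates 1 and 3 taken singly, the knockdown mean was higher for 22 and 23 of the 31 genes. Against control replicate 2 it was higher for 8, where 53.6% of all genes were higher. In a bulk sample, more cells in a given state and more RNA per cell cannot be told apart.

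**Figure D1:**
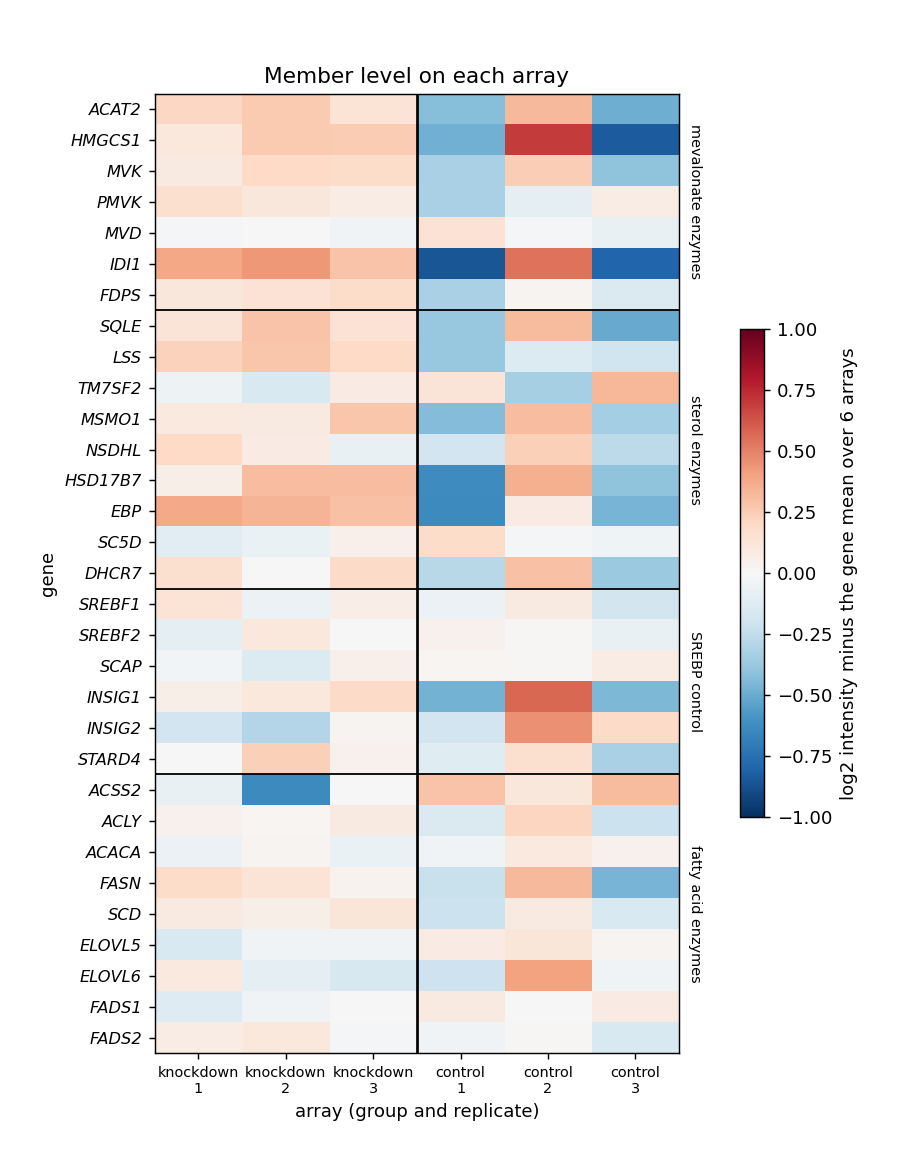
Level of each of the 31 measured genes (rows, ordered by role) on each of the 6 arrays (columns, knockdown left of control), coloured by log2 intensity minus the gene's mean over the 6 arrays. In the mevalonate and sterol blocks, control replicates 1 and 3 are mostly blue and control replicate 2 mostly red, with HMGCS1 at 39.49 in control replicate 2 against 17.45 and 13.68 in control replicates 1 and 3.

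In the comparison of knockdown with control over all 6 arrays, LSS and EBP rose and none of the 31 genes fell at an adjusted p under 0.05 (limma, Benjamini-Hochberg adjustment over all 18132 genes). That is 6.45% of the set, against 3.70% of all genes that rose, and 4.13% of all genes fell (7.83% called in either direction). The median log2 fold change, knockdown minus control, was 0.18 over the set and 0.01 over all genes, with 21 of the 31 genes above 0, or 67.7% against 52.7% of all genes. An unadjusted p under 0.05 was reached by 4 genes, FDPS, LSS and EBP above 0 and ACSS2 below it, or 12.9% of the set against 23.5% of all genes. The knockdown arrays lay above all control arrays for 4 genes (PMVK, FDPS, LSS and EBP), where 14.9% of all genes did so, and below all control arrays for 3 (ACSS2, ELOVL5 and FADS1), where 13.2% did. Those shares, 12.9% and 9.68% of the set, were below the shares over all genes.

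Without control replicate 2, 14 of the 31 genes rose and none fell (limma), or 45.2% of the set against 10.5% of all genes, and 10.1% of all genes fell in that fit. The genes were ACAT2, HMGCS1, MVK, IDI1, FDPS, SQLE, LSS, MSMO1, HSD17B7, EBP, DHCR7, INSIG1, FASN and SCD. The median log2 fold change of the set was then 0.27, against 0.01 over all genes. Expression values of these same arrays, and not its label, set control replicate 2 apart. The limma p-values without it, here and below, do not allow for that choice. For 10 of the 14, control replicate 2 lay above all 3 knockdown arrays, and those calls rest on leaving that array out. The calls of FDPS and SCD rest on leaving it out too (limma adjusted p = 0.125 and 0.307 over all arrays). Of the 14, only LSS and EBP were also called over all arrays. FDPS, LSS and EBP were the 3 of the 14 in which control replicate 2 lay below all knockdown arrays, and SCD lay within their range. In the 5 fits without 1 of the other arrays, 0 of the 31 genes were called by limma, and 3 or 4 had an unadjusted p under 0.05.

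**Figure D2:**
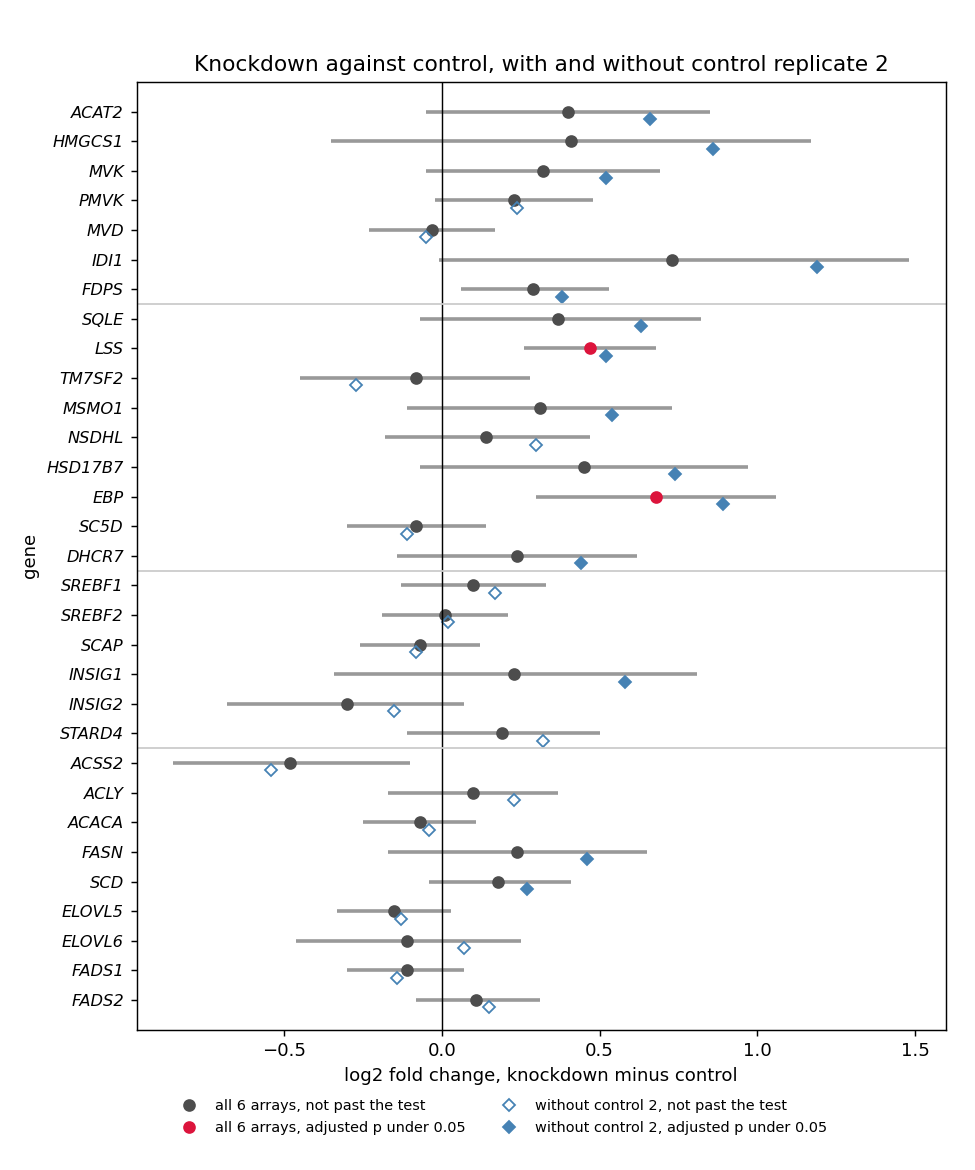
Log2 fold change of each of the 31 genes, knockdown minus control, over all 6 arrays (circles, with the 95% interval of the limma fit as bars) and without control replicate 2 (diamonds). Filled red circles mark LSS and EBP, which passed the test over all 6 arrays, and filled blue diamonds mark the 14 genes that passed it without control replicate 2, IDI1 at 1.19 among them.

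The 7 mevalonate enzymes had a median log2 fold change of 0.32, and none was called over all 6 arrays (limma; 1 had an unadjusted p under 0.05). IDI1, the isomerase that interconverts the pathway's isoprenoid building blocks, had the highest fold change of the set without control replicate 2. It measured 59.13, 61.13 and 55.04 in knockdown replicates 1, 2 and 3, against 25.08, 65.88 and 26.19 in control replicates 1, 2 and 3. The controls were therefore split, with control replicate 2 above every knockdown array and the other controls far below every one of them. The log2 fold change was 0.73 (95% interval -0.01 to 1.48, limma adjusted p = 0.219), and it was 1.19 ± 0.08 (SE, limma adjusted p = 0.000102) without control replicate 2.

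HMGCS1, the synthase that condenses acetoacetyl-CoA with acetyl-CoA, measured 26.18, 29.13 and 29.07 in knockdown replicates 1, 2 and 3. In control replicates 1, 2 and 3 it measured 17.45, 39.49 and 13.68. As in IDI1, control replicate 2 lay above the knockdown arrays and the other controls below them, with a larger gap between control replicate 2 and the knockdown arrays (log2 -0.49, knockdown mean minus control replicate 2, against -0.17 for IDI1). The fold change was 0.41 (interval -0.35 to 1.17) over all arrays and 0.86 ± 0.12 (SE, limma adjusted p = 0.00186) without control replicate 2.

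ACAT2, the cytosolic thiolase that opens the pathway, measured 186.7, 193.8 and 177.6 in knockdown replicates against 120.4, 202.3 and 115.2 in control replicates 1, 2 and 3. MVK, mevalonate kinase, measured 24.77, 26.67 and 26.5 in knockdown replicates against 18.61, 27.67 and 17.63 in control replicates. In both genes control replicate 2 exceeded all knockdown arrays. Without it ACAT2 stood at 0.66 (limma adjusted p = 0.00125) and MVK at 0.52 (0.00343), and with it at 0.40 (adjusted p = 0.269) and 0.32 (0.288).

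FDPS, farnesyl diphosphate synthase, showed another order. It measured 193.9, 198.4 and 203.9 in knockdown replicates against 143.3, 182.7 and 162.4 in control replicates, so the groups did not overlap and control replicate 2 was the highest control. Its fold change was 0.29 (interval 0.06 to 0.53, limma adjusted p = 0.125) over all arrays and 0.38 (adjusted p = 0.0177) without control replicate 2. PMVK, phosphomevalonate kinase, also had groups that did not overlap, by a narrow gap: 52.76 in the lowest knockdown array against 52.6 in the highest control array. MVD, the decarboxylase between these steps, measured 16.96, 17.1 and 16.72 in knockdown replicates against 18.88, 16.84 and 16.25 in control replicates (log2 -0.03, interval -0.23 to 0.17). MVD and PMVK were not called with or without control replicate 2.

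The 9 sterol enzymes had a median log2 fold change of 0.31, and the 2 genes that rose over all 6 arrays were both among them. LSS, the cyclase that folds oxidosqualene into lanosterol, measured 12.26, 12.63 and 11.95 in knockdown replicates against 8.026, 9.508 and 9.1 in control replicates 1, 2 and 3. The control arrays lay close together and all below the knockdown arrays. LSS rose 1.39-fold (log2 0.47 ± 0.09 SE, limma adjusted p = 0.0206), and it stood at 0.37 against control replicate 2 alone. EBP, the isomerase that moves the ring double bond of the sterol intermediates, measured 204.1, 198.1 and 192.2 in knockdown replicates against 100.9, 165.6 and 113.5 in control replicates. Control replicate 2 lay between the other controls and the knockdown arrays. EBP rose 1.60-fold (0.68 ± 0.17 SE, limma adjusted p = 0.0456), and it stood at 0.26 against control replicate 2 alone.

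Neither call was firm. Both were kept without control replicate 2 and lost in each of the 5 fits that left out another array, where fewer genes of the whole array were called as well. Over these 6 fits the log2 fold change ran from 0.40 to 0.52 for LSS and from 0.53 to 0.89 for EBP. LSS had 3 probe sets at 0.47, 0.34 and -0.11, of which the brightest was called. That probe set belongs to a class that can bind several transcripts (ID ending in _x_at), and LSS was not called without such sets (0.34, limma adjusted p = 0.206). The 2 probe sets of EBP gave 0.68 and 0.74, and neither passed in the test per probe set (adjusted p = 0.0585 and 0.0611).

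The 250 bases before the start of each of these 2 genes are shown because they are the members that rose over all 6 arrays. They come from RefSeq (GRCh38.p14), at chr21:46228775-46229024 on the minus strand for LSS and chrX:48521558-48521807 on the plus strand for EBP, printed 5′ to 3′ along the gene. Capitals mark 2 motifs on either strand: the CCAAT box, bound by NF-Y, and the GC box GGGCGG, bound by Sp1. The motifs searched do not overlap in these windows.
LSS: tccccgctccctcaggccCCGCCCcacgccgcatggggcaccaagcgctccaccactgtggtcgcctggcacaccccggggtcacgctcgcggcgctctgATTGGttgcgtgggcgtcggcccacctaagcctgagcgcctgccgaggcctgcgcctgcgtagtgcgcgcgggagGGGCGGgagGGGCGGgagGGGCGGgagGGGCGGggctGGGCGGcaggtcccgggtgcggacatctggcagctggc
EBP: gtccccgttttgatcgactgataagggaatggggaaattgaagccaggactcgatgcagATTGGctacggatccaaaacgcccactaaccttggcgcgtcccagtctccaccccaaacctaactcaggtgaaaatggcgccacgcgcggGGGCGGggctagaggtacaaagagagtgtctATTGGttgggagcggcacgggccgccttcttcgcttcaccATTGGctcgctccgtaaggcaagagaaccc
LSS held 1 CCAAT box and 6 GC boxes, 5 of them on the gene's own strand and set side by side before the start, in a window of 76.8% G and C. EBP held 3 CCAAT boxes, all on the strand opposite to the gene, and 1 GC box, at 57.6% G and C. Neither window held the sterol element TCACNCCAC or the E-box CACGTG.

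Of the 31 measured genes, 28 had such a window, as did 14425 of all measured genes. Searching both strands, CCAAT stood in 21 of the 28, or 75.0%, against 40.5% of all genes, and GGGCGG in 26, or 92.9%, against 63.6%. The median G and C content was 67.5% over the 28 genes and 62.4% over all genes. TCACNCCAC was found in 1 of the 28, SREBF2, or 3.57%, where 1.21% of all genes had a match. CACGTG was found in ELOVL5, INSIG1, SC5D and SCAP, or 14.3%, against 9.82%. These are letter matches in a short window and not measured binding.

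Among the other sterol enzymes, SQLE, the epoxidase that adds oxygen to squalene, measured 64.65, 71.73 and 65.27 in knockdown replicates against 45.43, 73.58 and 41.57 in control replicates. MSMO1, a methyl sterol oxidase, measured 91.56, 90.86 and 103.6 in knockdown replicates against 63.38, 105.8 and 67.61 in control replicates. Both repeated the split seen in IDI1, with control replicate 2 above every knockdown array. Without control replicate 2 they rose by 0.63 (limma adjusted p = 0.0022) and 0.54 (0.00496), and over all arrays they stood at 0.37 (interval -0.07 to 0.82) and 0.31 (-0.11 to 0.73). The 4 probe sets of MSMO1 ran from 0.03 to 0.31 over all arrays. With the _x_at and _s_at probe sets left out MSMO1 stood at 0.12 (limma adjusted p = 0.888).

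HSD17B7, a ketosteroid reductase of the pathway, measured 5.283, 6.274 and 6.304 in knockdown replicates against 3.277, 6.498 and 3.848 in control replicates. These intensities lay below the median gene mean of 8.68, where RMA compresses differences. DHCR7, which carries out the last reduction of the Kandutsch-Russell route, measured 23.65, 21.07 and 24.15 in knockdown replicates against 17.46, 25.8 and 16.32 in control replicates. Here too control replicate 2 was the highest of the 6 arrays. Without it HSD17B7 rose by 0.74 (limma adjusted p = 0.00314) and DHCR7 by 0.44 (0.0122), and over all arrays neither was called (0.45 and 0.24).

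NSDHL, the sterol decarboxylating dehydrogenase, measured 45.43, 41.87 and 37.51 in knockdown replicates against 34.55, 46.68 and 32.86 in control replicates, and it was not called with or without control replicate 2 (0.14 and 0.30). TM7SF2, a sterol reductase, ran the other way among the controls: 10.76, 10.05 and 11.78 in knockdown replicates against 12.18, 8.863 and 14.01 in control replicates. Its control replicate 2 was the lowest of the 6 arrays, and it was not called with or without that array (-0.08, and -0.27 without it). SC5D, the lathosterol desaturase, measured 62.44, 63.97 and 69.68 in knockdown replicates against 76.13, 66.19 and 65.21 in control replicates at its brightest probe set, where the groups overlapped and it was not called with or without control replicate 2 (-0.08 and -0.11). One dim probe set of SC5D, with mean intensities of 4.527 in knockdown and 6.348 in control cells, was lower in knockdown (log2 -0.49, adjusted p = 0.0446 over probe sets), while its other 3 probe sets stood at -0.08, 0.13 and 0.11.

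**Figure D3:**
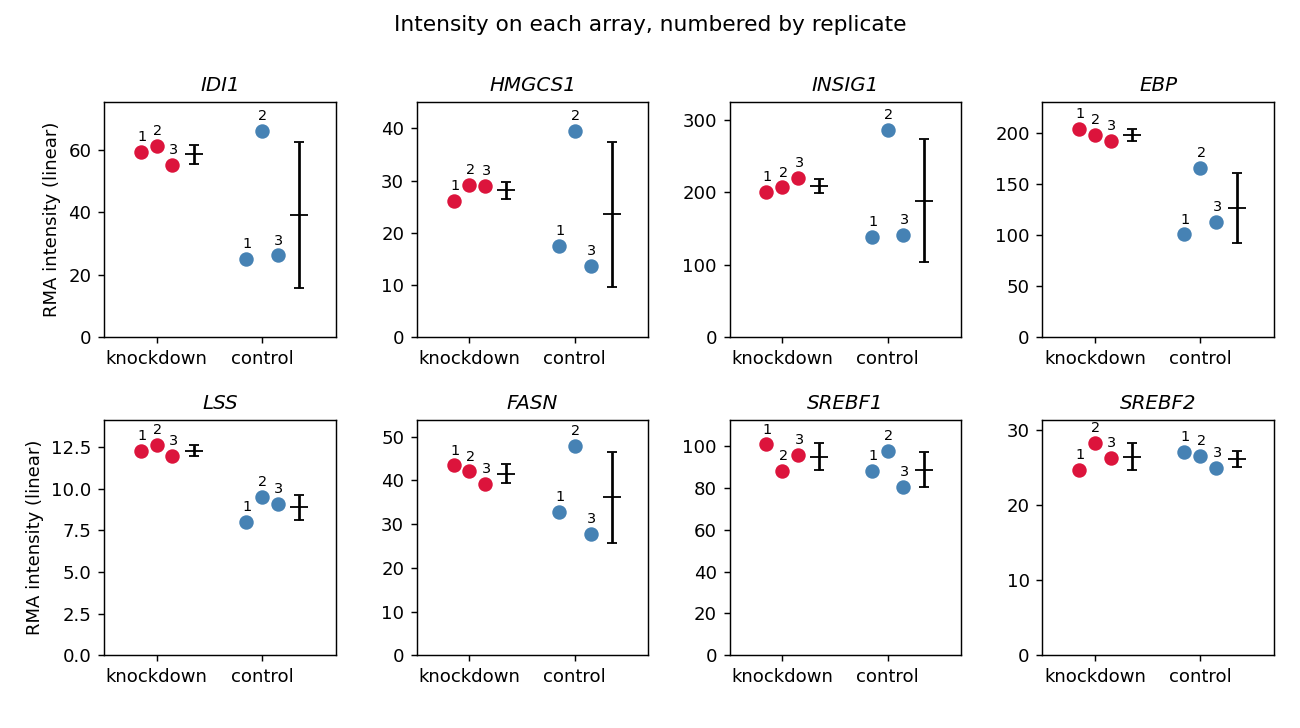
RMA intensity (linear axis from 0) of 8 genes on each array, with points numbered by replicate, knockdown in red left of control in blue, and the mean ± SD of each group (n = 3) in black. For IDI1, HMGCS1, INSIG1 and FASN control replicate 2 is the highest point, for LSS and EBP it lies below all knockdown points, and SREBF1 and SREBF2 overlap between groups.

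Transcripts of SREBF2, SREBF1 and SCAP, the core of the SREBP machinery, were not called with or without control replicate 2, and none had an unadjusted p under 0.05 over all arrays (limma). SREBF2, which encodes the isoform most tied to cholesterol synthesis, measured 24.73, 28.35 and 26.29 in knockdown replicates against 27.06, 26.52 and 25 in control replicates. SREBF1, more tied to fatty acid synthesis, measured 101.0, 88.19 and 95.92 in knockdown replicates against 88.14, 97.8 and 80.77 in control replicates. SCAP, the escort of both, measured 95.25, 88.3 and 100.5 in knockdown replicates against 98.33, 97.5 and 102.2 in control replicates. In all 3 genes the groups overlapped and control replicate 2 lay within the knockdown range. Their log2 fold changes were 0.01 (interval -0.19 to 0.21), 0.10 (-0.13 to 0.33) and -0.07 (-0.26 to 0.12). The 3 probe sets of SREBF2 stood at 0.01, -0.20 and -0.24, and the 2 of SCAP at -0.07 and 0.04. Those of SREBF1 ran from 0.08 to 0.10, and none of these probe sets was called. The cleavage and nuclear level of SREBP proteins are not measured by these arrays.

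In both INSIG genes, whose proteins retain SCAP, control replicate 2 was the highest of the 6 arrays. Only in INSIG1 did control replicates 1 and 3 both lie below every knockdown array. INSIG1 measured 200.6, 206.5 and 219.2 in knockdown replicates against 138.8, 285.8 and 140.7 in control replicates. Control replicate 2 was above every knockdown array by more than in most members (log2 -0.45, knockdown mean minus control replicate 2), and control replicates 1 and 3 were nearly equal. Without control replicate 2 INSIG1 rose by 0.58 ± 0.08 (SE, limma adjusted p = 0.00205), and with it the value was 0.23 (interval -0.34 to 0.81). INSIG2 measured 12.94, 12.05 and 15.06 in knockdown replicates against 12.93, 20.3 and 16.84 in control replicates and was not called with or without control replicate 2 (-0.30 and -0.15). Its 3 probe sets disagreed in sign (-0.30, -0.21 and 0.38). STARD4, a carrier that moves sterol between membranes, measured 7.101, 8.385 and 7.324 in knockdown replicates against 6.529, 7.928 and 5.653 in control replicates, also below the median gene mean, and it was not called (0.19, and 0.32 without control replicate 2).

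The 9 fatty acid enzymes had a median log2 fold change of -0.07, and none was called over all 6 arrays (limma; 1 had an unadjusted p under 0.05). FASN, the fatty acid synthase, measured 43.44, 42.08 and 39.25 in knockdown replicates against 32.77, 47.89 and 27.68 in control replicates. As in IDI1 and HMGCS1, control replicate 2 lay above the knockdown arrays and the other controls below them. The value was 0.24 (interval -0.17 to 0.65, limma adjusted p = 0.481) over all arrays, and FASN rose by 0.46 (adjusted p = 0.0138) without control replicate 2. SCD, which puts the first double bond into saturated fatty acids, measured 840.3, 822.0 and 856.2 in knockdown replicates against 679.1, 837.0 and 709.3 in control replicates. Control replicate 2 lay among the knockdown arrays, and SCD rose by 0.27 (adjusted p = 0.0408) without it, against 0.18 over all arrays.

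The enzymes that feed FASN were not called with or without control replicate 2. ACLY, which releases cytosolic acetyl-CoA from citrate, measured 507.6, 501.1 and 524.8 in knockdown replicates against 446.6, 571.7 and 426.0 in control replicates (0.10, interval -0.17 to 0.37). ACACA, the carboxylase that makes malonyl-CoA, measured 94.68, 100.4 and 93.98 in knockdown replicates against 96.47, 105.5 and 101.5 in control replicates (-0.07, interval -0.25 to 0.11). ACSS2, which makes acetyl-CoA from acetate, had the lowest fold change of the set. It measured 12.15, 8.249 and 12.82 in knockdown replicates against 15.64, 13.84 and 15.99 in control replicates, so the groups did not overlap and knockdown replicate 2 lay lowest. The log2 fold change was -0.48 (interval -0.85 to -0.10, limma adjusted p = 0.121), and it was -0.54 (adjusted p = 0.0703) without control replicate 2. It ran from -0.60 to -0.28 over the fits without 1 array.

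Elongases and front-end desaturases stood near or below 0. ELOVL5, which extends polyunsaturated chains, measured 314.6, 342.0 and 341.2 in knockdown replicates against 370.7, 380.4 and 356.3 in control replicates, with no overlap (-0.15, interval -0.33 to 0.03). FADS1, the delta-5 desaturase, measured 165.7, 176.7 and 180.6 in knockdown replicates against 193.1, 181.3 and 191.8 in control replicates, again with no overlap (-0.11, interval -0.30 to 0.07). Control replicate 2 was the highest array for ELOVL5 and lay just above the knockdown arrays for FADS1, and neither gene was called without it (-0.13 and -0.14). All 3 probe sets of FADS1 were negative, and 1 of them was lower in knockdown in the test per probe set (-0.36, adjusted p = 0.0451). ELOVL6, the elongase of saturated chains, measured 42.95, 37.4 and 35.85 in knockdown replicates against 34.74, 52.84 and 39.13 in control replicates. FADS2, the partner desaturase of FADS1, measured 18.44, 18.93 and 17.43 in knockdown replicates against 17.16, 17.7 and 15.83 in control replicates. The groups overlapped in ELOVL6 and FADS2, and neither was called with or without control replicate 2.

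The 31 genes were read by 83 probe sets, of which 56, or 67.5%, had a log2 fold change above 0, against 51.3% of all probe sets. By role the count was 14 of 15 for the mevalonate enzymes, 19 of 25 for the sterol enzymes, 13 of 19 for regulation and transfer and 10 of 24 for the fatty acid enzymes. Probe sets of 1 gene share that gene's RNA and are not replicates. Of the 26 genes with more than 1 probe set, 13 had all of them above 0 and 5 had all below 0. In the test per probe set 1 of the 83 rose and 2 fell, where 1.98% of all probe sets rose and 4.48% were called in either direction.

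**Figure D4:**
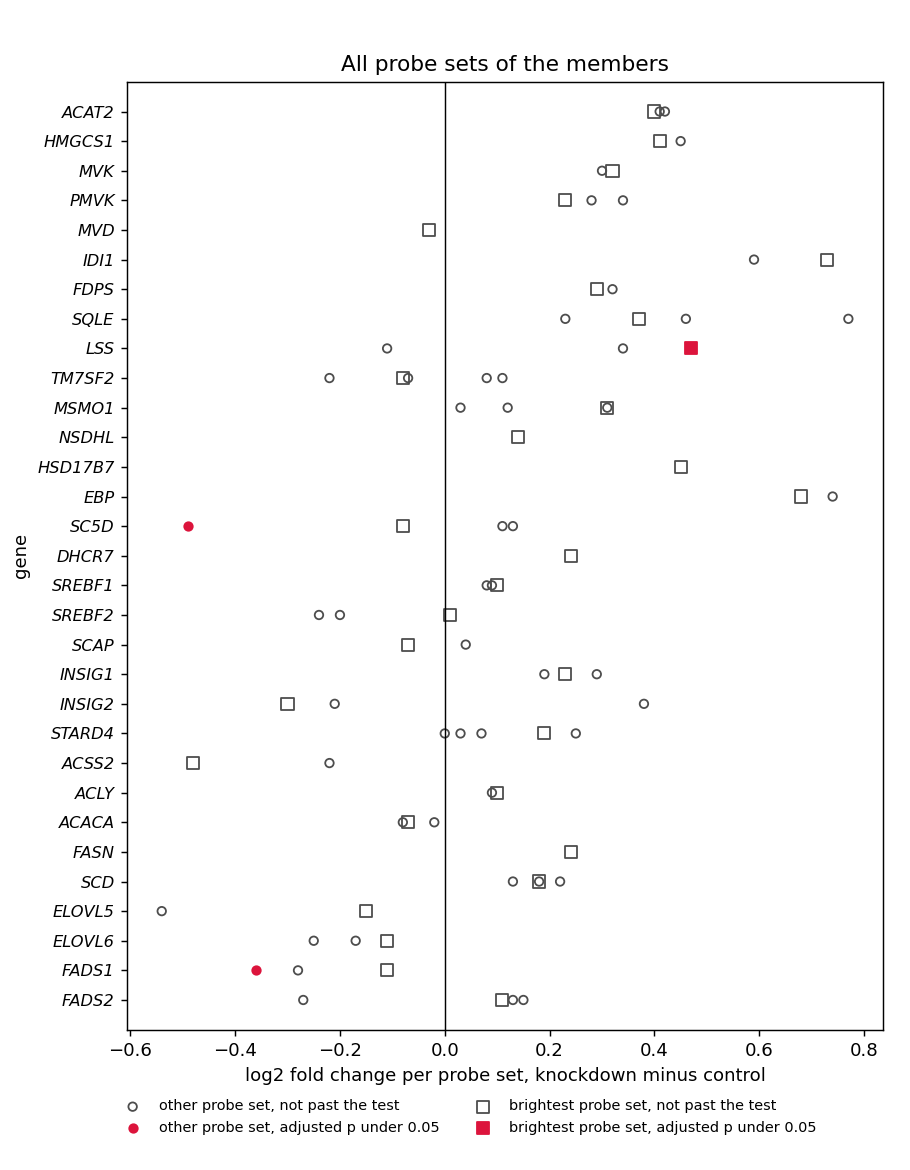
Log2 fold change, knockdown minus control over all 6 arrays, of each of the 83 probe sets (points) of the 31 genes (rows), with the brightest probe set of a gene as a square and filled red symbols for adjusted p under 0.05. Mevalonate probe sets lie right of 0 except that of MVD, at -0.03. LSS, SC5D, SREBF2, INSIG2 and FADS2 are among the genes with probe sets on both sides.

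Other genes of lipid metabolism were taken from lists written from general knowledge. Those called only without control replicate 2 were named after their values were seen, apart from MBTPS2 and DGAT2. For comparison with the list counts, 3.70% of all genes rose and 4.13% fell over all 6 arrays. Without control replicate 2, 10.5% of all genes rose and 10.1% fell. Of 11 measured partners of sterol synthesis, 1 rose and none fell over all 6 arrays. This was CYB5B, a cytochrome b5 of the mitochondrial outer membrane that passes electrons to lipid enzymes, with 344.9 ± 5.92 in knockdown and 195.0 ± 65.6 in control cells (SD, n = 3 each; log2 0.87, limma adjusted p = 0.0343, kept among the fits without 1 array only without control replicate 2). LBR and CYB5A rose as well and PRKAA2 fell without control replicate 2. Over all 6 arrays LBR and CYB5A stood at 0.25 and 0.22, and at 0.13 and 0.12 with the _x_at and _s_at probe sets left out. PRKAA2 had means of 4.005 in knockdown and 5.862 in control cells, below the median gene mean of 8.68. Of 10 measured genes of SREBP processing none was called (2 at an unadjusted p under 0.05), and the smallest p was that of MBTPS2, the site-2 protease (-0.39, limma adjusted p = 0.106). MBTPS2 measured 204.9, 209.6 and 225.6 in knockdown replicates against 308.2, 228.8 and 306.1 in control replicates. Its control replicate 2 thus lay near the knockdown arrays, and without that array MBTPS2 fell by 0.53 (adjusted p = 0.0033), and TMEM97 and SEC24D rose.

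Of 12 measured genes of the isoprenoid branch, 1 rose and 1 fell. PDSS1, which makes the ubiquinone side chain, measured 57.02 ± 3.33 in knockdown and 42.22 ± 5.03 in control cells (SD, n = 3 each; log2 0.44, limma adjusted p = 0.0418). The mean of its 2 probe sets gave -0.02. PGGT1B, a subunit of an enzyme that attaches geranylgeranyl groups to proteins, measured 33.2 ± 1.19 in knockdown and 50.57 ± 8.68 in control cells (SD, n = 3 each; log2 -0.59, limma adjusted p = 0.0306). The mean of the probe sets of PGGT1B gave -0.38 (adjusted p = 0.0566). Both calls were kept among the fits without 1 array only without control replicate 2, where ICMT rose as well and FNTA fell.

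Of 17 measured genes of sterol uptake, storage and efflux, 2 rose and none fell, and both release cholesterol from its esters. LIPA, the lysosomal acid lipase, measured 273.2, 265.9 and 260.9 in knockdown replicates against 133.3, 190.8 and 143.0 in control replicates 1, 2 and 3 (log2 0.79 ± 0.13 SE, limma adjusted p = 0.0123). NCEH1, a neutral cholesterol ester hydrolase, measured 19.8, 21.31 and 19.48 in knockdown replicates against 13.83, 13.77 and 16.37 in control replicates (0.47 ± 0.10 SE, limma adjusted p = 0.0271). In both genes every control array, replicate 2 included, lay below every knockdown array. LIPA kept its call without control replicate 1 or 2 and NCEH1 without control replicate 2 or 3, and both lost it in the other 4 fits without 1 array. With the _x_at and _s_at probe sets left out, LIPA stood at 0.83 with an adjusted p of 0.0607. With the mean of its 3 probe sets, which ran from -0.13 to 0.47, NCEH1 stood at 0.20 and was not called (adjusted p = 0.146). NPC2 rose as well, and ABCG1 and VLDLR fell, without control replicate 2. Means in knockdown and control cells were 6.079 and 8.375 for ABCG1 and 2.959 and 6.492 for VLDLR, below the median gene mean of 8.68.

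Of 21 measured genes of fatty acid supply, activation and elongation, 1 rose and 3 fell. ELOVL1, the elongase of very long saturated chains, measured 137.5, 135.3 and 119.6 in knockdown replicates against 79.08, 86.91 and 81.24 in control replicates (0.67 ± 0.09 SE, limma adjusted p = 0.00545). ME1, the cytosolic malic enzyme that supplies NADPH, measured 59.25, 55.1 and 54.74 in knockdown replicates against 81.79, 85.02 and 92.66 in control replicates (-0.62 ± 0.09 SE, limma adjusted p = 0.00613). In both genes control replicate 2 lay with the other controls, and both kept their calls in all 6 fits without 1 array. FADS3 (-0.58, limma adjusted p = 0.0296) and ACSL1, an acyl-CoA synthetase (-0.44, adjusted p = 0.0255), also fell, and among the fits without 1 array both kept their calls only without control replicate 2. ACSL1 was named after its value was seen, and its value was -0.07 with the _x_at and _s_at probe sets left out and -0.26 (adjusted p = 0.0873) with the mean of its probe sets. SLC25A1, SCD5 and TECR rose as well, and MID1IP1 and MECR fell, without control replicate 2. Over all 6 arrays SLC25A1 and SCD5 stood at 0.32 and 0.34, and at 0.00 and 0.02 with the _x_at and _s_at probe sets left out. TECR and MID1IP1 had no value with those sets left out. Of 14 measured genes of glycerolipid synthesis none was called (3 at an unadjusted p under 0.05), and DGAT2, which makes triglyceride, had the smallest p (0.35, limma adjusted p = 0.0804). Without control replicate 2, DGAT2 rose by 0.45 (adjusted p = 0.00586), LPIN1 rose by 0.37 (0.0154) and GPAM fell by 0.36 (0.033). Over all arrays the probe sets ran from -0.07 to 0.35 for DGAT2, -0.06 to 0.27 for LPIN1 and -0.37 to 0.04 for GPAM. With the mean of its probe sets DGAT2 stood at 0.14 (limma adjusted p = 0.229).

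Genes outside lipid metabolism separated control replicate 2 from the other controls as well. The geometric mean of 9 genes of the amino acid stress response was 61.4, 57.86 and 61.84 in knockdown replicates against 221.8, 62.68 and 236.6 in control replicates 1, 2 and 3. ASNS, asparagine synthetase, is one of them, with 222.2, 238.4 and 238.2 in knockdown replicates against 1427, 320.6 and 1562 in control replicates. Of these 9 genes 1 fell over all arrays, PHGDH of serine synthesis (-1.28, limma adjusted p = 0.0352), where 4.13% of all genes fell. All 9 fell without control replicate 2, where 10.1% of all genes did. The geometric mean of 10 proliferation genes was 145.0, 147.3 and 142.5 in knockdown replicates against 114.4, 161.9 and 105.6 in control replicates. None of these 10 was called over all arrays (1 at an unadjusted p under 0.05), with PCNA, the replication clamp, nearest (0.76, limma adjusted p = 0.127). Without control replicate 2, 5 rose, PCNA among them (1.13, adjusted p = 9.79e-05), where 10.5% of all genes rose. The knockdown mean was above control replicate 3 for all 10 proliferation genes and above control replicate 1 for 8. TOP2A was highest of all arrays in control replicate 1 (610.3). Averaged over each set, control replicates 1 and 3 were thus high in the stress genes and low in the proliferation and sterol genes. The part of either difference in the sterol enzyme values was not tested.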

How the data were processed

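Total RNA of A375 cells was measured on 6 arrays, 3 knockdown and 3 control. The authors summarised and normalized the intensity of each probe set with RMA, per the submitters' processing notes (version not stated), and deposited it on a linear scale. The linear scale was read from the values, 1.55 to 6658. Array medians lay between 4.85 and 4.94. No detection calls were used, and precision is limited by the number of arrays.

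Log2 was taken without a pseudocount or a filter. Of 49293 probe sets, the platform annotation gave 44988 with 1 symbol, 1832 with several and 2473 with none. Only the first were used, and the brightest by mean of 6 arrays stood for its gene. Entrez identifiers were checked against RefSeq (GRCh38.p14), which changed 0 symbols and left 27 probe sets unmatched. The comparison of knockdown with control used lmFit and eBayes of limma 3.58.1 in R 4.3.3, with Benjamini-Hochberg adjustment over 18132 genes and a threshold of 0.05. The fit was tested on simulated data with independent noise and no array set apart, so that test does not bear on control replicate 2. The labels give no batch or scan date. Python 3.11.15, pandas 2.3.3, numpy 2.4.6 and matplotlib 3.10.9 served for other steps.

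The members and lists were chosen with earlier results of these data known. Every member was named. Of each list, up to 2 rises and 2 falls past the test were named, or the gene with the smallest p where none passed. Of the marker lists, 1 of 10 melanoma genes rose and 2 fell, 2 of 7 epithelial and 1 of 4 leukocyte genes rose, and 0 of 6 fibroblast genes were called by limma, with 1 at an unadjusted p under 0.05. Among all genes 3.70% rose, 4.13% fell and 23.5% had an unadjusted p under 0.05. Alternatives were a replicate block, an intensity trend, array weights, a common median, repeated quantile normalization, filters on dim genes, other choices of probe set, and leaving out each array in turn.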

Additional observations from a re-analysis of the deposited data

How the results depend on the processing

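Over all genes 1420 were called, and among the 31 members 2. With array weights, which gave control replicate 2 the lowest weight (0.344), 3103 genes and 8 members were called. Leaving out each array in turn gave 324 to 3732 genes and 0 to 14 members, with both upper values from the fit without control replicate 2 and 0 members in the other 5. With probe sets averaged per gene, with _x_at and _s_at probe sets left out, and in the test per probe set, 1 member was called each time: EBP, EBP and LSS. Such _x_at or _s_at sets were the brightest for 19 of the 31 members. With them left out 26 members were tested, as FDPS, TM7SF2, HSD17B7, ACLY and SCD had no value. An intensity trend, a common median, repeated quantile normalization and filters on the dimmest 25% or 50% of genes each called LSS and EBP and no other member, although 2 of the 31 members were left out by the 50% filter. No member was called as lower in any of these fits. For the test per probe set, this and the member count hold at the brightest probe set of each gene. Dimmer probe sets of SC5D and FADS1 were called lower in that test. PDSS1 changed sign to -0.02 with the mean of its probe sets, as its other probe set stood at -0.48.

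Replicate numbers shared between the groups did not pair the arrays: the correlations of deviations from the group means were -0.08, 0.02 and 0.06 for numbers 1, 2 and 3. With the replicate number as a block 1188 genes and 2 members, LSS and EBP, were called, and PDSS1 was not (adjusted p = 0.0721). The arrays hold no detection calls, so a level near the median gene cannot be told from background. This touches LSS, HSD17B7 and STARD4, and PRKAA2, ABCG1, VLDLR and DGAT2 among the other genes of lipid metabolism.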
